A study of Macaca mulatta with 30 samples.

Results

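The chemokines and their receptors were examined as a gene family on the rhesus macaque GeneChip. A gene was a member when at least 1 probeset carried its symbol alone and the symbol was that of a CC, CXC, CX3C or XC chemokine ligand, of a CCR, CXCR or XCR receptor, or of an atypical receptor (ACKR), with CCL25 left out. This gave 45 genes, 30 ligands and 15 receptors, of 14133 genes with such a probeset. The members had 64 of the 24969 probesets with 1 symbol, and each gene was represented by its probeset with the highest mean signal over all arrays. CXCR1, CXCR2 and CX3CR1 were among the receptors that were not members.

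Chemokines are small secreted proteins that direct cell migration by binding receptors coupled to G proteins on leukocytes and other cells. Inflammatory chemokines are induced by cytokines and recruit neutrophils, monocytes and effector lymphocytes, whereas homeostatic chemokines are made constitutively and position lymphocytes and progenitors in organs such as the thymus. Atypical receptors bind the same ligands, mostly remove or hold them, and do not signal through G proteins.

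RNA of rhesus macaque cerebral cortex, pancreas, testis and thymus and of an immortalized fibroblast cell line was labeled and hybridized at Oregon, Nebraska and Yerkes. Each center received 2 aliquots of each RNA, which gave 30 arrays, 6 from each tissue. The labels gave no age, sex or treatment, and each tissue was 1 RNA sample, so that SDs, standard errors (SE) and p-values describe labeling and hybridization and not animals. The fibroblasts were a cultured line and not a tissue.

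Array correlations (Spearman, over probesets) were 0.976 to 0.994 between aliquots of a tissue at a center, 0.951 to 0.987 between centers for a tissue and 0.691 to 0.869 between tissues. Mean signal was 6.33 and 6.36 on the Oregon and Nebraska arrays but 6.91 on the Yerkes arrays, and this offset is part of each SD over 6 arrays. The paper reported that pancreas had the largest scaling factors at each center and data of lower quality than the other tissues. It advised caution with the pancreas arrays. The tissue labels were checked against marker genes. All 3 measured acinar markers exceeded every other tissue by at least 1 on the log2 scale in pancreas, as did all 3 T cell markers in thymus. This also held for all 3 germ cell markers and all 4 Sertoli and Leydig cell markers in testis. It held for all 3 neuron and 2 astrocyte markers in cerebral cortex and for 3 of 5 fibroblast markers in fibroblast. COL3A1 and DCN, also of the fibroblast list, were highest in fibroblast by 0.581 and 0.768. In the tissues, fewer cells of a type and less RNA per cell cannot be told apart.

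All values are log2 signals, and differences are differences of log2 signal. To be called in a tissue, a probeset had to lie at least 1, which is 2-fold, above each other tissue at an adjusted p under 0.05 (limma with tissue and center as terms, Benjamini-Hochberg adjustment over 52865 probesets). By this rule 10 members were called, 8 ligands and 2 receptors, and 35 were not. In fibroblast 4 members were called, CXCL8, CCL2, CCL20 and ACKR4, where 2.84% of all probesets were called. In thymus 4 were called, CXCR4, CCL19, CCL17 and XCL1, against 3.04% of all probesets. CXCL17 was the 1 member called in pancreas (1.3% of all probesets) and CCL8 the 1 member called in testis (1.41%). In cerebral cortex 0 of 45 members were called, where 4.48% of all probesets were. For each of the 10 called members, the 6 arrays of the called tissue lay above all 24 other arrays. The call itself selects for such separation, and how often it held among all called probesets was not counted.

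With no minimum difference, 11 members passed in pancreas (23.9% of all probesets), 10 in thymus (11.5%), 8 in fibroblast (9.36%), 3 in testis (6.38%) and 2 in cerebral cortex (10.1%). These were 24.4%, 22.2%, 17.8%, 6.67% and 4.44% of the members. Pancreas was the highest tissue for 19 members, which is 42.2% of them, and for 37.5% of all probesets. Of these 19 members only CXCL17 was called. With the 6 pancreas arrays left out, 6 members were called in fibroblast (with ACKR3 and CCL11), 5 in thymus (with CCR7), 1 in testis and 1 in cerebral cortex (CX3CL1). Of all probesets 3.47%, 3.39%, 1.84% and 5.27% were then called in these tissues. The highest tissue was the same at all 3 centers for 35 members, and how often this held over all probesets was not counted. The median difference between the highest and the lowest tissue was 1.07 over the members, 1.14 over the ligands and 0.71 over the receptors, against 1.17 over all probesets with 1 symbol and 0.894 over all probesets.

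**Figure D1:**
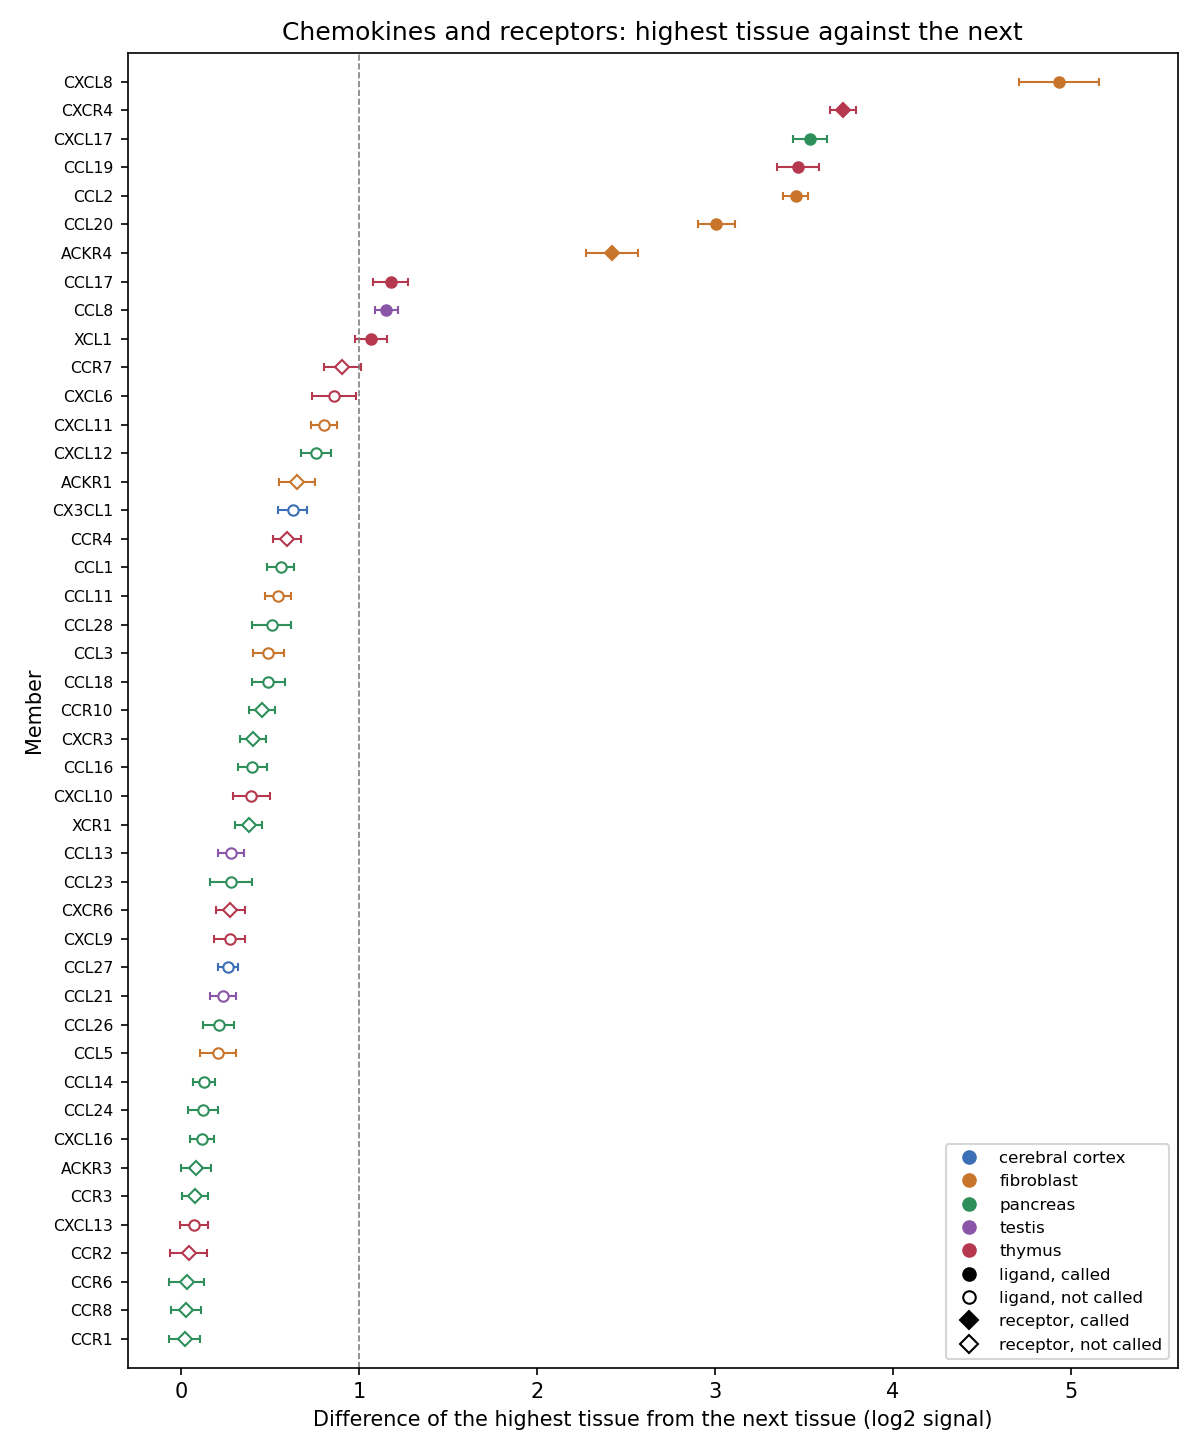
Difference of log2 signal between the highest tissue and the next tissue (x axis) for each of the 45 members (y axis), colored by highest tissue, with circles for ligands, diamonds for receptors and filled symbols for called members. Bars are the SE from limma over 30 arrays and the dashed line is the minimum of 1. CXCL8 lies at 4.93 and 3 filled symbols lie between 1.07 and 1.18, while 25 members lie under 0.5.

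**Figure D2:**
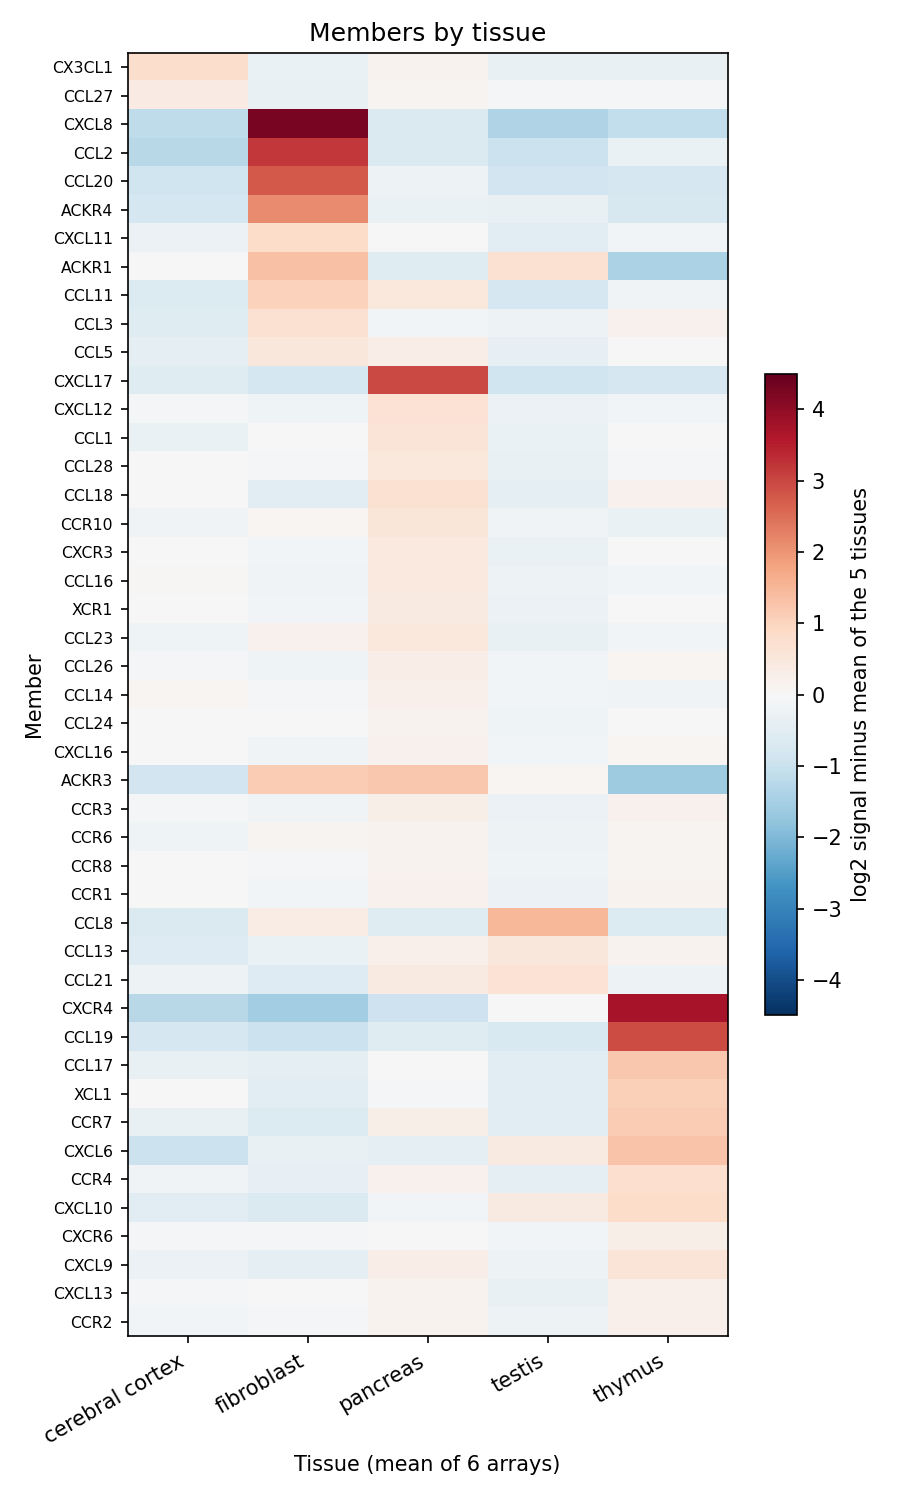
Mean log2 signal of each member in each tissue (6 arrays) minus the mean of the 5 tissues, with members grouped by their highest tissue. Red marks values above the mean of the tissues and blue values below it. CXCL8, CCL2, CCL20 and ACKR4 stand out in fibroblast, CXCL17 in pancreas and CXCR4 and CCL19 in thymus.

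Among the inflammatory ligands, CXCL8, CCL2 and CCL20 were high in the fibroblast line and near or below the array median elsewhere. CXCL8 is the neutrophil attractant interleukin-8. In fibroblast the Oregon aliquots gave 12.28 and 12.24, the Nebraska aliquots 10.11 and 10.03 and the Yerkes aliquots 11.32 and 11.13. In pancreas, the next tissue, they ranged from 5.79 to 6.76 with a median of 6.23. The difference was 4.93 (SE 0.225, 30.5-fold, limma adjusted p = 1.54e-18), and the centers taken alone gave 6.17 (Oregon), 4.0 (Nebraska) and 4.62 (Yerkes). The lowest fibroblast array was 3.27 above the highest array of any other tissue, and the means of cerebral cortex, testis and thymus were close together at 5.79, 5.55 and 5.80.

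CCL2 attracts monocytes. Its fibroblast aliquots gave 9.26 and 9.17 (Oregon), 9.49 and 9.52 (Nebraska) and 9.86 and 9.81 (Yerkes). In thymus, the next tissue, it ranged from 5.84 to 6.48 with a median of 5.92. The difference was 3.45 (SE 0.0697, 11-fold, limma adjusted p = 5.59e-28), with 3.34, 3.59 and 3.43 at Oregon, Nebraska and Yerkes. CCL2 was above the array median on the 6 fibroblast arrays and on no other array, and its fibroblast arrays did not overlap those of any tissue.

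CCL20 attracts cells bearing CCR6, among them dendritic cells and some T and B cells. Its fibroblast aliquots gave 9.52 and 9.48 (Oregon), 8.73 and 8.91 (Nebraska) and 9.60 and 9.48 (Yerkes), and in pancreas they ranged from 5.91 to 6.81 with a median of 6.07. The difference was 3.01 (SE 0.104, 8.04-fold, limma adjusted p = 9.89e-22). It was 3.54 at Oregon and 2.74 at each of the other centers. Like CCL2, CCL20 exceeded the array median in fibroblast only, and the groups did not overlap.

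Other inflammatory ligands of these groups were not called. CXCL6, which like CXCL8 attracts neutrophils, was highest in thymus at 8.56 ± 0.455 (SD, n = 6), with testis next at 7.70 ± 0.400 and fibroblast at 6.94 ± 0.511 (difference from testis 0.862, SE 0.124). CXCL9, CXCL10 and CXCL11 bind CXCR3 and are induced by interferon. CXCL11 was highest in fibroblast, at 8.65 ± 0.339 against 7.85 ± 0.333 in pancreas (difference 0.804, SE 0.0724), and CXCL9 and CXCL10 were highest in thymus, by 0.274 and 0.395. CCL11, an eosinophil attractant, was at 7.10 ± 0.303 in fibroblast and 6.56 ± 0.321 in pancreas. CCL3 and CCL5, which bind CCR1, had their highest means in fibroblast too, by 0.491 and 0.207. None of these differences reached 1. The other CCL5 probeset was higher in fibroblast by 0.998 (SE 0.0812), and the other CXCL11 probeset was highest in thymus, by 0.325.

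CCL8, a monocyte attractant related to CCL2, was called in testis. Its testis aliquots gave 8.41 and 8.41 (Oregon), 8.91 and 8.82 (Nebraska) and 9.15 and 9.20 (Yerkes). In fibroblast, the next tissue, they ranged from 7.37 to 8.07 with a median of 7.53. The difference was 1.15 (SE 0.0644, 2.22-fold, limma adjusted p = 9.27e-16), and it was 0.995, 1.35 and 1.11 at the 3 centers. The testis arrays lay above all others, with 0.339 between the lowest of them and the highest other array. The 2 other probesets of CCL8 had no such pattern: 1 was highest in pancreas by 0.153 and 1 in fibroblast by 0.281. CCL13, of the same subgroup, was highest in testis by 0.282 (SE 0.0734) and was not called.

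CXCL17 is a ligand of mucosal tissues. The pancreas aliquots gave 9.47 and 9.51 (Oregon), 9.76 and 9.73 (Nebraska) and 9.79 and 9.98 (Yerkes). In cerebral cortex, the next tissue, it ranged from 5.70 to 6.86 with a median of 5.95. The difference was 3.54 (SE 0.0942, 11.6-fold, limma adjusted p = 1.16e-24), with 3.54, 3.93 and 3.10 at Oregon, Nebraska and Yerkes. The 4 other tissues lay together, with means of 5.85 to 6.17, and no array of theirs overlapped pancreas. Of 4 duct markers, CFTR was called in pancreas (by 1.92) and KRT7 in thymus. The mean of the duct list was 7.62 to 7.82 on the pancreas arrays and 7.08 to 7.77 on the thymus arrays, and its part in the CXCL17 result was not tested.

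Of the homeostatic ligands, CCL19, CCL17 and the lymphotactin XCL1 were called in thymus. CCL19 binds CCR7 and guides T cells and mature dendritic cells. In thymus the Oregon aliquots gave 9.68 and 9.68, the Nebraska aliquots 9.99 and 9.71 and the Yerkes aliquots 10.05 and 9.97. In pancreas, the next tissue, they ranged from 5.50 to 7.04 with a median of 6.28. The difference was 3.47 (SE 0.118, 11.1-fold, limma adjusted p = 6.36e-22), and it was 3.40, 3.82 and 3.02 within the centers. The thymus arrays were 2.63 or more above every other array.

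CCL17 is made by dendritic cells and thymic epithelium and binds CCR4. Its thymus aliquots gave 7.51 and 7.42 (Oregon), 7.84 and 8.04 (Nebraska) and 8.02 and 7.94 (Yerkes). In pancreas it ranged from 6.27 to 7.10 with a median of 6.55. The difference was 1.18 (SE 0.0969, 2.26-fold, limma adjusted p = 6.28e-12), with 1.06, 1.49 and 0.981 at Oregon, Nebraska and Yerkes. The groups were separated by 0.325 and the Yerkes value alone lay under the minimum.

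XCL1 attracts dendritic cells that bear XCR1. In thymus it ranged from 6.97 to 7.31 with a median of 7.16, and in cerebral cortex from 5.78 to 6.57 with a median of 5.94. The difference was 1.07 (SE 0.089, 2.1-fold, limma adjusted p = 8.43e-12), and it was 1.22, 1.13 and 0.796 within the centers. XCL1 was above the array median on the thymus arrays only. Its probeset is of a type that can match several transcripts, so that signal of a related copy such as XCL2 cannot be told apart. The other XCL1 probeset was called in thymus too, by 1.48 (SE 0.185). That probeset was at 5.84 in thymus and exceeded the median of no array in any tissue.

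CX3CL1, or fractalkine, is a ligand on neurons that binds CX3CR1 of microglia. It was highest in cerebral cortex, where it ranged from 7.70 to 9.09 with a median of 8.08, against 7.36 to 8.14 with a median of 7.56 in pancreas. The difference was 0.628 (SE 0.0811), with 0.521, 0.436 and 0.927 at the centers. It was not called, and over all centers its arrays overlapped those of pancreas. Its receptor CX3CR1, no member, was at 6.40 ± 0.383 (SD, n = 6) in cerebral cortex and 6.21 ± 0.341 in pancreas, and exceeded the array median on the 6 cortex arrays and no others.

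Of the homeostatic ligands that were not called, CCL21, which shares CCR7 with CCL19, was at 8.11 ± 0.278 in testis, 7.87 ± 0.348 in pancreas and 7.24 ± 0.416 in thymus. The other CCL21 probeset had its highest mean in thymus, by 0.0331, less than its SE of 0.0859. CCL27 and CCL28, the epithelial ligands of CCR10, were highest in cerebral cortex by 0.262 and in pancreas by 0.508. CXCL12, the ligand of CXCR4 and ACKR3, was highest in pancreas by 0.757 (SE 0.0832) on the probeset used and in testis on its other probesets. CXCL13, a B cell attractant, differed by 0.0717 between thymus and pancreas, less than its SE of 0.0797.

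**Figure D3:**
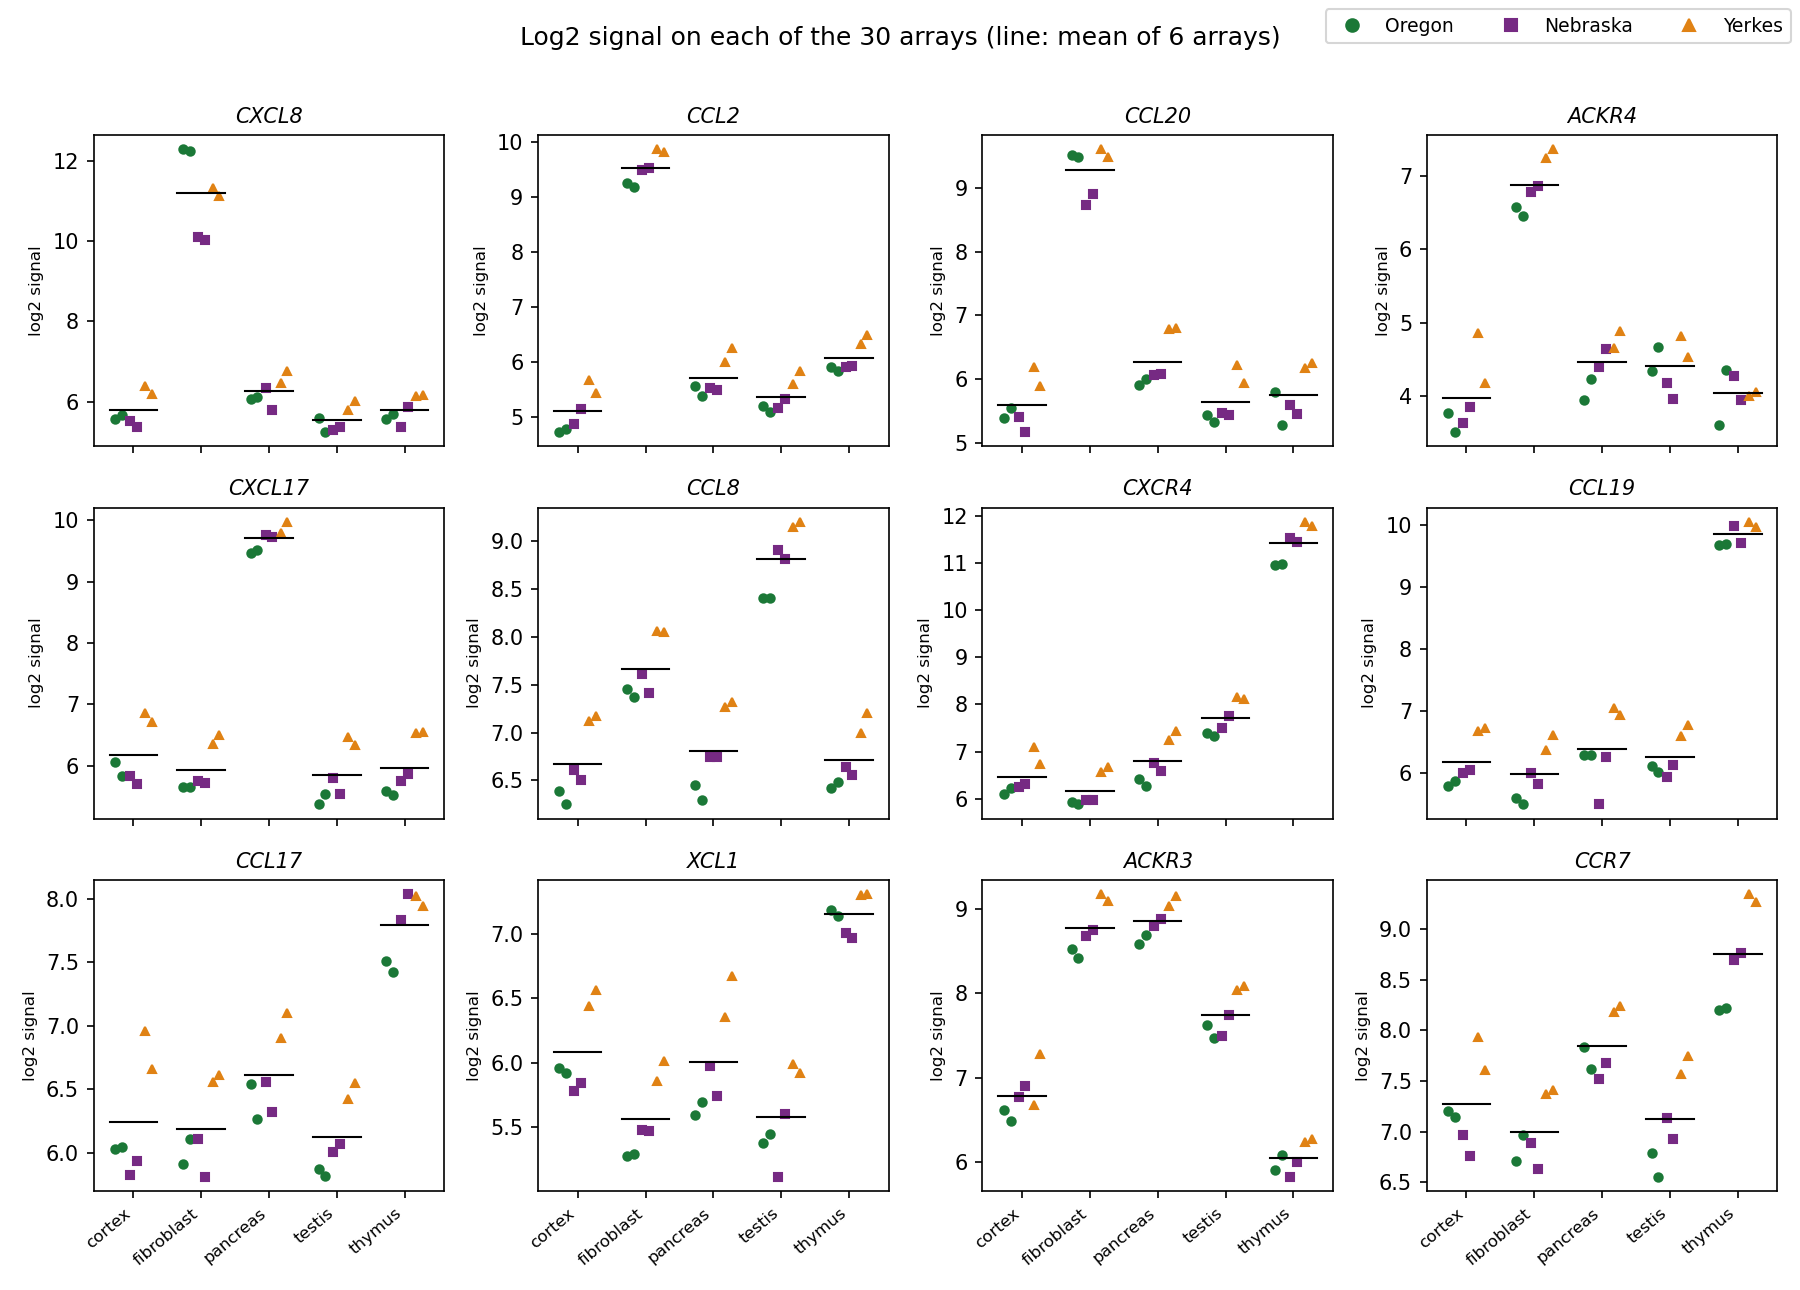
Log2 signal (y axis) of the 10 called members, of ACKR3, called in a pair of tissues, and of CCR7 on each of 30 arrays, by tissue (x axis) and center (symbol), with a line at the mean of 6 arrays. Scales differ between genes. In fibroblast the Oregon arrays of CXCL8 are at 12.28 and 12.24 and the Nebraska arrays at 10.11 and 10.03, while in each of the first 10 panels the called tissue lies above all other arrays.

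CXCR4 was the 1 conventional receptor called. It is the receptor of CXCL12 and is carried by thymocytes and many other leukocytes. In thymus the Oregon aliquots gave 10.96 and 10.98, the Nebraska aliquots 11.53 and 11.45 and the Yerkes aliquots 11.87 and 11.78. In testis, the next tissue, they ranged from 7.34 to 8.15 with a median of 7.64. The difference was 3.72 (SE 0.0746, 13.2-fold, limma adjusted p = 5.59e-28), with 3.61, 3.86 and 3.70 at Oregon, Nebraska and Yerkes. The lowest thymus array was 2.81 above every array of the other tissues, and fibroblast had the lowest mean at 6.16.

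The other receptors of lymphocytes were highest in thymus by less than 1 or not highest there. CCR7, which admits T cells to lymphoid organs, ranged from 8.20 to 9.35 in thymus with a median of 8.73, against 7.52 to 8.24 with a median of 7.75 in pancreas. The difference was 0.905 (SE 0.104) and was not called, with 0.487 at Oregon against 1.13 and 1.09 at the other centers. Within each center thymus lay above all other tissues. CCR4 was at 6.77 ± 0.386 in thymus and 6.17 ± 0.377 in pancreas (difference 0.595, SE 0.0795), and exceeded the array median on the thymus arrays only. CXCR6 differed by 0.277 and CXCR3, highest in pancreas, by 0.402.

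CCR1, CCR2, CCR3, CCR6 and CCR8, receptors of monocytes, granulocytes and lymphocyte subsets, had nearly the same level in their highest and next tissue, with differences of 0.0205 to 0.0760. For CCR1, CCR2, CCR6 and CCR8 these were smaller than their SE of 0.0837 to 0.105. CCR2, CCR8, CXCR6 and XCR1 were at or below the median of every array. With CCL16, CCL23, CCL24 and CCL28 among the ligands, this held for 8 of 45 members, while 10 members exceeded the median on all 30 arrays. Of all 52865 probesets, 13365 exceeded the median on no array and 14497 on all arrays. Of the 24969 probesets with 1 symbol, these were 3306 and 9656. At or below the median, a low transcript level and a probeset with little response cannot be told apart.

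T cell markers and CXCR4 shared their highest tissue. The mean signal over the 3 measured T cell markers, CD4, CD5 and CD8A, was 10.1 to 10.7 on thymus arrays and 6.16 to 7.46 on all others. Of 4 genes listed as dendritic cell markers, CD83 and CD1C were called in thymus, with a list mean of 8.04 to 8.56 against 6.0 to 6.85 in the other tissues. CD1C, at 10.3 in thymus, had the largest difference of this list, 3.24. FLT3 and LAMP3 were highest in thymus by 0.764 and 0.459 and were not called. Of 4 thymic epithelium markers, PAX1 and PSMB11 were called there, of 3 B cell markers MS4A1, and of 4 neutrophil markers S100A8 and S100A9. Other markers of these lists were highest in pancreas and not called, FOXN1 by 0.272, CD79A by 0.209, CSF3R by 0.269 and S100A12 by 0.125. The neutrophil list was at 7.53 to 8.03 in thymus and 5.45 to 6.18 in fibroblast. The part of any of these cells in the thymus differences was not tested.

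Among the atypical receptors, ACKR4, which removes CCL19, CCL21 and CCL25, was called in fibroblast. It ranged from 6.45 to 7.36 there with a median of 6.82, and in pancreas from 3.94 to 4.88 with a median of 4.52. The difference was 2.42 (SE 0.148, 5.36-fold, limma adjusted p = 3.5e-15), and it was 2.01, 2.30 and 2.54 at the centers. ACKR4 exceeded the array median on the fibroblast arrays alone, and their lowest value was 1.57 above the rest.

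ACKR3, which binds CXCL11 and CXCL12, was high in a pair of tissues. It was at 8.78 ± 0.303 (SD, n = 6) in fibroblast and 8.86 ± 0.214 in pancreas, which overlapped, against 7.74 ± 0.265 in testis, 6.79 ± 0.278 in cerebral cortex and 6.05 ± 0.181 in thymus. The lower of the pair exceeded testis by 1.04 (SE 0.0821, limma adjusted p = 2.75e-11). It was the 1 member called in a pair, where 2.98% of all probesets were called over the 10 pairs of tissues. The call was close to the minimum, and it was lost when replicate 1 of testis at Nebraska was left out (0.996) and after quantile normalization of all arrays together (0.923). ACKR1, which binds many inflammatory chemokines including CCL2 and CXCL8, was at 8.98 ± 0.585 in fibroblast, 8.33 ± 0.693 in testis and 6.23 ± 0.448 in thymus, and its difference of 0.651 (SE 0.0988) from testis was not called. The other ACKR1 probeset was highest in pancreas, by 0.225.

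Ligands and receptors were set side by side in 48 textbook pairs, of which 29 had both sides among the members. In 10 of these the ligand and the receptor had the same highest tissue, which was pancreas in 7, thymus in 2 and fibroblast in 1. In the pancreas pairs with CCR1, CCR3 and CCR8 the receptor differed from the next tissue by 0.0205 to 0.0760, and pancreas was the highest tissue of 37.5% of all probesets. The ligand was called in 8 pairs and the receptor in 3, both sides were called in 1 pair, and in 0 pairs were they called in the same tissue. These counts rest on the probeset of highest mean signal of each gene. On another CXCL12 probeset testis and thymus exceeded the other tissues by 1.77, and the receptor CXCR4 was called in thymus. CCL19 and CCR7, and CCL17 and CCR4, were each highest in thymus, with the ligand called and the receptor not. CCL2 in fibroblast and CCL8 in testis stood against CCR2, which was below the array median everywhere, with tissue means of 5.01 to 5.46. For CCL20 the receptor CCR6 had means of 6.32 to 6.71 in the 5 tissues. XCR1, the receptor of XCL1, was at 6.11 in pancreas and 5.71 in thymus. The 1 pair with both sides called was CCL19, in thymus, and its scavenger ACKR4, in fibroblast.

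The called members were highest in the same tissue at all 3 centers, but the size of the difference could depend on the center. A tissue by center interaction was called when its F test over 8 terms passed an adjusted p of 0.05 and the deviations from the additive fit of tissue and center spanned at least 1 over the centers in some tissue. CXCL8 was the 1 member called (limma adjusted p = 1.21e-05), where 0.942% of all probesets were. Its fibroblast values deviated by 0.988 (Oregon), -0.706 (Nebraska) and -0.281 (Yerkes), a span of 1.69, and spanned 0.414 to 0.483 in the other tissues. By construction the deviations at a center cancel over the tissues, so the spans of the other tissues in part mirror fibroblast. The aliquots of 1 center differed by at most 0.186 in fibroblast. Without the Oregon arrays the span was 0.425 and the interaction did not pass (limma adjusted p = 0.292).

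CCL20 deviated in the same order of centers as CXCL8, by 0.355 (Oregon), -0.186 (Nebraska) and -0.168 (Yerkes), and its span of 0.541 was under the minimum (limma adjusted p = 0.0355). ACKR4 was lowest at Oregon, with deviations of -0.16, 0.042 and 0.118. For CCL2 no deviation exceeded 0.101 in size. In the order Oregon, Nebraska and Yerkes the fibroblast means, which include the higher signal of the Yerkes arrays, of CCL2 were 9.21, 9.50 and 9.84, and those of ACKR4 were 6.51, 6.82 and 7.30. CCL20 was at 9.50, 8.82 and 9.54. With no minimum span, 11 members passed the F test, which is 24.4% of them, against 28.3% of all probesets.

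RNA control probesets differed between centers in fibroblast. The 3' probeset of GAPDH exceeded the 5' one by 2.52 at Nebraska, against 1.40 and 1.5 at Oregon and Yerkes (means of 2 arrays), and that of ACTB by 2.62 against 1.42 and 1.97. Nebraska was the highest center in each. In thymus the GAPDH difference was 0.286 at Nebraska, against 0.924 and 0.195. In pancreas the GAPDH difference was 2.13 (Oregon), 1.03 (Nebraska) and 1.6 (Yerkes), and that of ACTB was 1.99, 1.3 and 2.13. The part of these control differences in the CXCL8 values and in the pancreas results was not tested.

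**Figure D4:**
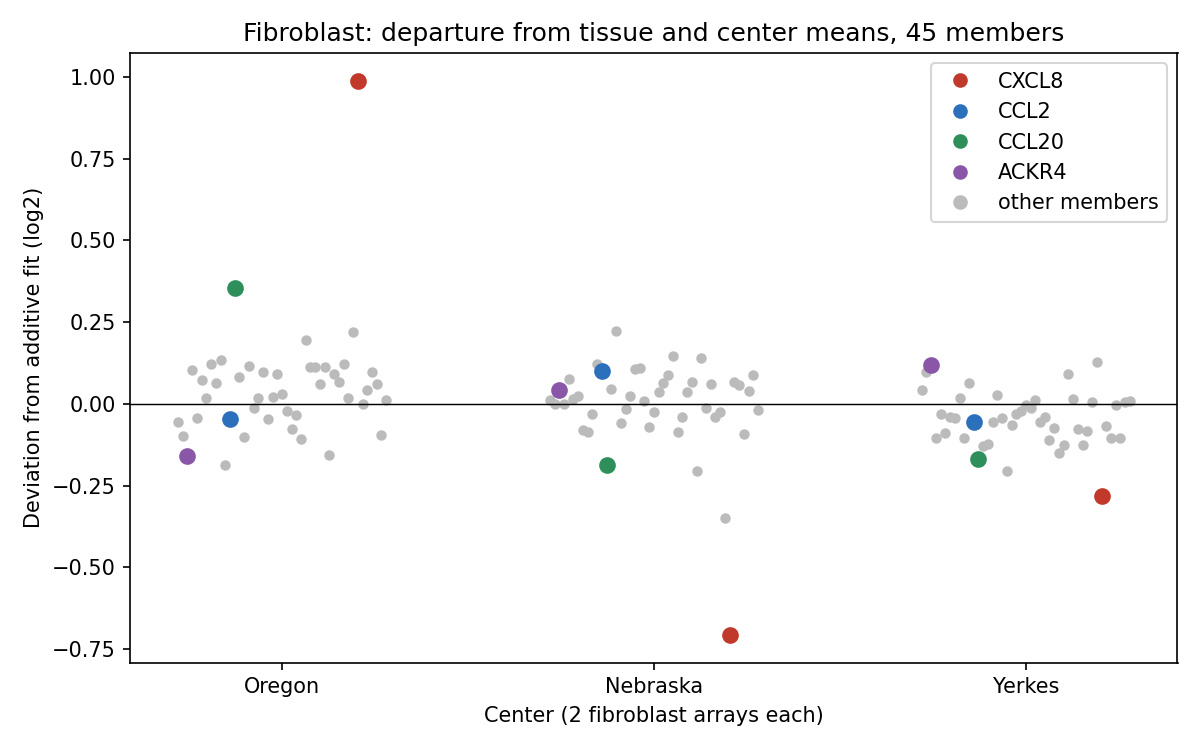
Deviation of each member's mean fibroblast signal at a center (2 arrays, x axis) from the additive limma fit of tissue and center (y axis, log2), with the 4 members called in fibroblast in color and the other members in grey. CXCL8 lies at 0.988, -0.706 and -0.281, and is the farthest from 0 at each center.

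Where a gene had several probesets, the highest tissue often depended on the probeset. This was so for 8 of the 13 members with more than 1, while 5 had the same highest tissue on all of theirs. CXCL12, chosen for description after its values were seen, had a probeset that was highest in pancreas, at 8.19 ± 0.198 (SD, n = 6). Another of its probesets ranged from 8.81 to 9.27 in testis with a median of 9.12, from 8.13 to 8.64 in thymus with a median of 8.42 and from 5.03 to 5.81 in fibroblast with a median of 5.39. On that probeset testis and thymus exceeded the other tissues by 1.77 (SE 0.0758, limma adjusted p = 6.3e-18), and the lowest testis and thymus arrays lay above the highest of pancreas, 6.76.

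For 3 members a probeset other than the one used was called in 1 tissue, and these too were chosen after their values were seen. A CCL18 probeset was higher in thymus by 1.34 (SE 0.076), at 8.11 ± 0.262 there and 6.77 ± 0.304 in pancreas, where the used probeset was highest in pancreas. A CXCL13 probeset was higher in cerebral cortex by 1.44 (SE 0.0679), at 6.64 ± 0.166 against 5.20 ± 0.268 in fibroblast, where the used one was highest in thymus. A CCL3 probeset was higher in fibroblast by 1.09 (SE 0.149), the tissue in which the used one was also highest. That CCL3 probeset was at 5.31 in fibroblast and exceeded the median of no array in any tissue. The sequences behind the probesets were not examined here, so which transcript each detects was not tested.

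**Figure D5:**
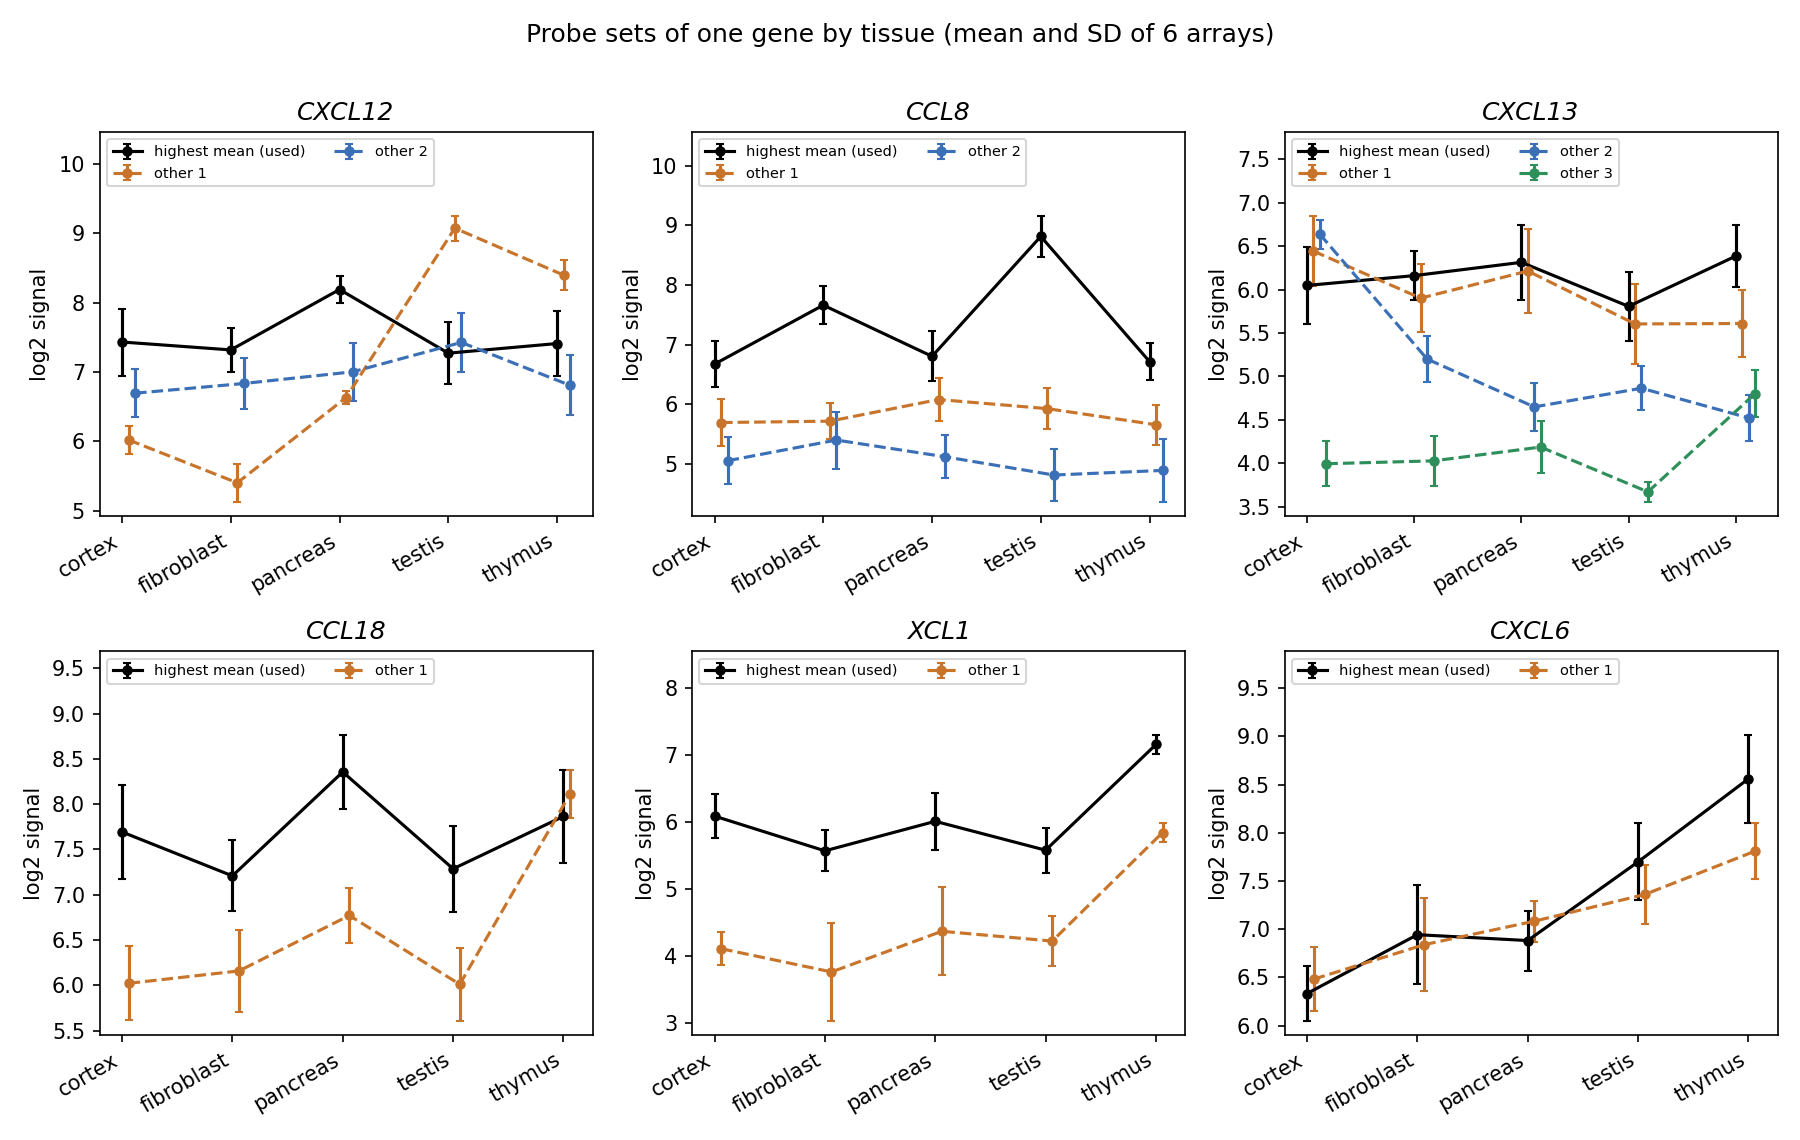
Log2 signal (y axis, mean and SD of 6 arrays) by tissue (x axis) for the probesets of 6 members, with the probeset of highest mean signal in black and the others dashed. The shapes are compared, not the levels. Probesets of CXCL12, CCL8, CXCL13 and CCL18 are highest in different tissues, while those of XCL1 and CXCL6 are all highest in thymus.

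Genes that act around the family were counted from 4 lists. Of all probesets, 3.04% were called in thymus, 4.48% in cerebral cortex, 2.84% in fibroblast, 1.3% in pancreas and 1.41% in testis. Of 36 measured genes of chemokine receptor signalling, 5 were called in thymus, 3 in cerebral cortex, 2 in fibroblast and 0 in pancreas or testis. The largest differences were 4.24 for RAC2, a small GTPase of blood cells, 3.63 for RHOH, another, and 2.64 for RGS1, which damps G protein signalling, all in thymus, and 3.59 for RGS16 in fibroblast. Of 23 inducible inflammatory genes, 6 were called in fibroblast and 1 in thymus. The fibroblast genes were led by the cytokine IL6 at 4.68, TNFAIP6 at 3.73, the superoxide dismutase SOD2 at 3.45 and the cytokine LIF at 3.15. In this list 0 genes had an interaction call, and in the signalling list there was 1, GNB1, with a span of 1.04 in fibroblast. GNB1 was highest there at Nebraska, at 9.77, against 8.73 at Oregon, opposite to CXCL8. With no minimum span, 6 of the 23 inducible genes and 18 of the 36 signalling genes passed the F test, against 28.3% of all probesets. Chosen after their values were seen, IL6, IL1A and STAT3 were lower at Nebraska than at Oregon in fibroblast, as CXCL8 was. IL6 deviated by 0.528 (Oregon), -0.245 (Nebraska) and -0.284 (Yerkes), with a span of 0.812 (limma adjusted p = 4.81e-05). The spans of IL1A and STAT3 were 0.631 and 0.984 (limma adjusted p = 0.000483 and 6.08e-07).

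Of 22 genes that cleave or bind chemokines, 8 were called in fibroblast, 2 in thymus, 1 in pancreas and 1 in testis. Of all probesets 2.84%, 3.04%, 1.3% and 1.41% were called in these tissues. The matrix proteinases MMP3 and MMP1 were higher in fibroblast by 9.07 and 6.20, TNFAIP6, which binds CXCL8, by 3.73, and the neutrophil elastase ELANE in thymus by 3.02. Of 12 chemokine-like genes and related receptors outside the family, RARRES2, the precursor of chemerin, was called in testis by 2.33, and CD74, a receptor of MIF, in thymus by 1.70.

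Many chemokine genes lie in clusters. By their order in a current RefSeq annotation of the macaque genome, used for neighbours only and not the array's build, 28 members fell into 8 clusters with gaps of at most 250 kb. In 1 of these, CCL24 and CCL26, all members had the same highest tissue, and neither gene was called. CXCL8, high in fibroblast, lay beside CXCL6, highest in thymus. The cluster of CCL2, CCL11, CCL8, CCL13 and CCL1 held members highest in fibroblast, testis and pancreas.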

How the data were processed

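Total RNA was labeled and hybridized to the rhesus GeneChip. The deposited values are log2 signals that the authors made with MAS background correction, quantile normalization within each center and RMA summary over all 30 arrays; these steps were not repeated. Gene symbols came from the platform annotation, and for 45 of 45 members the Entrez gene ID gave the same current symbol. A member took its probeset of highest mean signal. Tests used limma 3.58.1 in R 4.3.3 on all 52865 probesets, with tissue and center as terms. For a tissue, the largest of the one-sided p-values against the other 4 was adjusted (Benjamini-Hochberg). Pairs of tissues were tested alike, and the interaction by an F test. The scripts were tested on simulated data. The members and lists were chosen with earlier results of these data known. Values were given for every called member and for its textbook partners. Aliquot numbers did not pair samples: deviations of equal numbers at a center correlated at -0.304 to 0.35. The number of arrays limits the precision.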

Additional observations from a re-analysis of the deposited data

Results flagged for a closer look

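Of the 11 members that passed the interaction test, CXCL8 was the 1 with a span of at least 1. Its deviations in fibroblast spanned 1.69 over the 3 centers (limma interaction, adjusted p = 1.21e-05), with the 2 arrays of each center close together. Dixon's criterion was applied to 55 groups of 6 arrays, those of the members called in 1 tissue or a pair of tissues, and 0 were flagged. The values were pooled over centers without adjustment, so the center offset widened each range. An array that differed from its own aliquot could therefore be missed. CCL19 in pancreas, at 5.50 and 6.25 on the Nebraska aliquots, was not flagged.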

How the results depend on the processing

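The counts of called members were recomputed under up to 18 alternatives, 17 for pancreas and 12 for the interaction, and with each of the 30 arrays left out. Among these settings, shares of all probesets were computed only with no minimum difference and without the pancreas arrays. Under the others, a change particular to the members cannot be told from a change over all probesets. No result reversed, and CXCL8, CCL2, CCL20, CXCL17, CCL19 and CXCR4 kept their calls wherever they were tested, with ACKR4 also kept but left untested by a filter on mean signal that removed 21 members. With no minimum difference the counts were 11 in pancreas, 10 in thymus, 8 in fibroblast, 3 in testis, 2 in cerebral cortex, 2 in a pair of tissues and 11 for the interaction. With a minimum of 2 they were 0 in testis, 2 in thymus, 0 in a pair and 0 for the interaction. Quantile normalization of all arrays together gave 3 in pancreas, adding CCL18 and CXCL12, and 0 in a pair. Counting any probeset gave 1 in cerebral cortex (CXCL13) and 2 in a pair (adding CXCL12), and the mean of a gene's probesets gave 0 in testis, where CCL8 fell to 0.259. Without the Oregon arrays the interaction count was 0. Oregon alone gave 0 in testis (CCL8 at 0.995) and 0 in a pair, and Yerkes alone gave 2 in a pair, adding ACKR1. Nebraska alone gave 5 in fibroblast, adding CXCL11, and 6 in thymus, adding CCR7 and CXCL6. CCR7 was also called at Yerkes alone and without Oregon. Without the pancreas arrays there was 1 member in cerebral cortex (CX3CL1) and 0 in a pair, since ACKR3 was then called in fibroblast alone. Leaving out 1 array gave 0 to 1 in a pair and changed no other count. Single members near the minimum fell below it: XCL1 without Oregon (0.964) and at Yerkes alone (0.796), CCL17 at Yerkes alone (0.981) and ACKR3 at Oregon alone (0.93). The replicate block left every count as it was, with 4 in fibroblast and 4 in thymus. The causes were not tested.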
